A study of Drosophila melanogaster with 4 samples.

Results

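The genes yip7, Jon65Aiii and Jon66Cii, which belong to the family of serine proteases that Drosophila makes for digestion, were followed in heads of flies fed strychnine. They were found by their symbols in the platform annotation and were 3 of 2027 named genes with a value in every distinct set of the series, on 6 of its 27648 spots. They had been picked from these same data because yip7 and Jon65Aiii had among the most positive log2 ratios of all named genes while Jon66Cii was negative. Those log2 ratios are therefore given as a description, with no test.

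Digestive serine proteases cut dietary proteins with a serine in the active site and are secreted by the midgut as inactive precursors. The Jonah genes are a multigene family of such enzymes, and each symbol carries the chromosome band that holds the gene. They are known for expression in the gut of feeding larvae and adults. The gene yip7 encodes a protease of the same type and was named for a protein that interacts with Yippee. The fly midgut lies in the thorax and abdomen. Strychnine, a convulsant from plants, acts on the glycine receptors of vertebrates.

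Unmated wild-type Oregon-R males aged 3 to 4 days were kept for 7 days either on normal food or on normal food with strychnine at 3.33 mg/ml, with 30 flies in a vial at the start. Heads were separated on sieves from frozen flies and pooled, and treated and control RNA of each of 4 biological replicates were hybridised together to a spotted cDNA array read in both colours. Cy5 marked the treated pool on replicates 1 and 2, and on replicates 3 and 4 the dyes were exchanged. Pools of heads were the unit of replication, and in such bulk RNA fewer cells of a type cannot be told apart from less RNA per cell.

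A value was present for 7647 to 9725 spots per array, and the median deposited log2 ratio lay between -0.621 and -0.121. At all 7643 spots with a value in both, replicates 1 and 3 held identical numbers despite opposite dye labels. As they did not differ at any of these spots, they count here as 1 sample, called the shared set, and n is 3 sets. Whether a positive ratio stands for Cy5 or for the treated pool is not stated in the labels, so no sign is read below as an increase or decrease after strychnine. Each array was centred on its median, and spots were averaged by gene or, without a symbol, by duplicate pair, which gave 4002 units with a value in all 3 sets. The label of the tissue can be checked only by which genes gave a value: 10 of 12 photoreceptor markers in the annotation did, as did 2 of 2 neuron markers and 3 of 8 glia markers. So did 7 of 8 muscle markers, 5 of 9 head fat body markers, 4 of 8 testis and accessory gland markers and 9 of 16 gut serine proteases, so having a value does not set head tissue apart.

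Yip7 had a centred log2 ratio of 1.56 (shared set), 1.06 (replicate 2) and 2.06 (replicate 4). All 3 values were above 0, and the mean was 1.56 ± 0.499 (SD, n = 3 sets), a 2.95-fold difference between the channels. This was the most positive mean of the 2027 named genes. Among all 4002 units, where unnamed spot pairs are included, it was in place 44.

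Jon65Aiii, a Jonah gene of the same chromosome band as its relatives Jon65Ai, Jon65Aii and Jon65Aiv, read 1.60 (shared set), 1.19 (replicate 2) and 1.24 (replicate 4). Again no set was near 0, and the mean was 1.34 ± 0.221 (SD, n = 3 sets), a 2.54-fold difference. It stood in place 4 of the named genes.

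Jon66Cii, a Jonah gene of another band, read -0.669 (shared set), -0.537 (replicate 2) and -0.536 (replicate 4). The mean was -0.580 ± 0.0764 (SD, n = 3 sets), a 1.50-fold difference in the opposite direction. It had the least spread of the 3 genes and the least extreme position, in place 292 of 2027 named genes counted from the most negative.

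**Figure D1:**
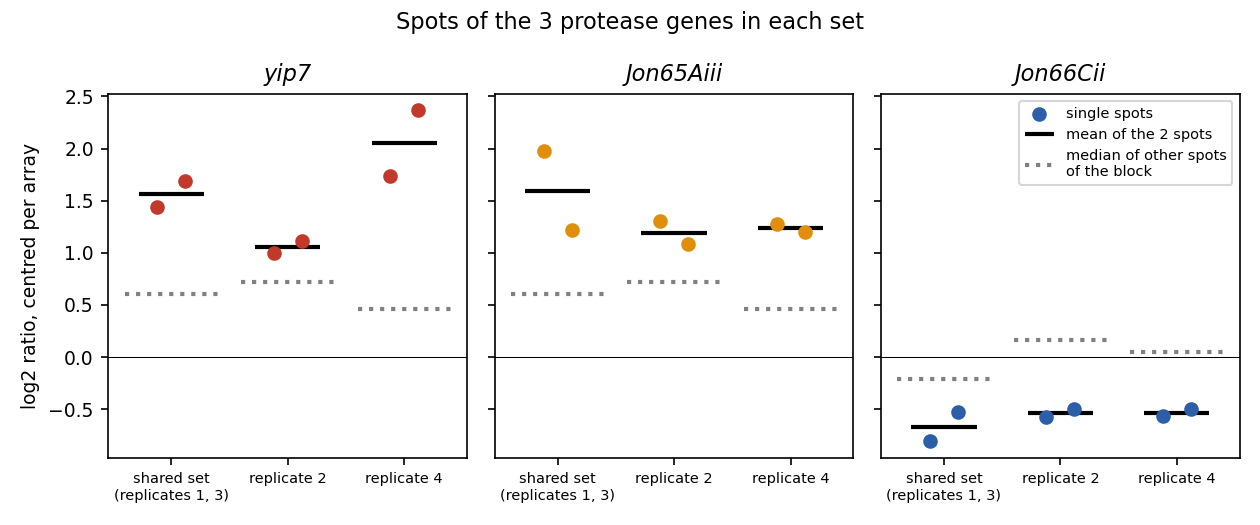
Centred log2 ratio (vertical axis) of each spot of yip7, Jon65Aiii and Jon66Cii in the shared set, replicate 2 and replicate 4 (horizontal axis); points are single spots, black bars the mean of the 2 spots of a gene, dotted grey bars the median of the other spots of the same block of the slide. Every spot of yip7 and Jon65Aiii lies above both 0 and its block, and every spot of Jon66Cii below both.

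Each gene was printed as 1 pair of neighbouring spots, so its value rests on 2 spots per array. The spots of yip7 read 1.44 and 1.69 in the shared set, 1.00 and 1.11 on replicate 2, and 1.74 and 2.37 on replicate 4. The spots of Jon65Aiii read 1.97 and 1.22 in the shared set, 1.30 and 1.09 on replicate 2, and 1.27 and 1.20 on replicate 4. Those of Jon66Cii read -0.807 and -0.530, -0.579 and -0.496, and -0.569 and -0.502 in the same order. The spots of a gene thus always had the same sign, while their distance was uneven. It reached 0.755 for Jon65Aiii in the shared set and 0.628 for yip7 on replicate 4, against a median of 0.138 and 0.168 over all duplicate pairs of these sets.

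Within each array, yip7 and Jon65Aiii were not separated by more than their spread. Yip7 was lower by a difference of -0.0335 in the shared set and -0.136 on replicate 2, and higher by 0.818 on replicate 4, a mean difference of 0.216 ± 0.523 (SD, n = 3 sets). Jon66Cii was below both in all 3 sets. The difference between yip7 and Jon66Cii was 2.23, 1.60 and 2.59 in the order shared set, replicate 2 and replicate 4, and that between Jon65Aiii and Jon66Cii was 2.27, 1.73 and 1.77. These directions follow from how the genes were picked.

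One quantity was independent of the mean that picked them: the component of a log2 ratio that flips with the dyes, that is the difference between replicates 2 and 4 divided by 2. If a deposited value means Cy5 over Cy3, this component is the treatment effect. For Jon65Aiii and Jon66Cii it was close to 0, at -0.0218 and -0.00075, because both genes read nearly the same on these arrays of opposite dye. The limma standard errors were 0.258 and 0.243, and the 95% intervals ran from -0.666 to 0.623 and from -0.607 to 0.606. For yip7 it was -0.50, with a standard error of 0.241 and an interval from -1.10 to 0.103, since replicate 4 read higher than replicate 2. All 3 standard errors rest mostly on variance that limma pools over all units, not on the spread of the gene itself. The adjusted p-values from limma were 0.967 for yip7, 0.998 for Jon65Aiii and 0.999 for Jon66Cii, so none of the 3 passed the threshold of 0.05. Of all 4002 units limma called 0, which is 0% (158 units, 3.95%, had an unadjusted p under 0.05). Simulated effects were not called either. Their noise was drawn from each unit's SD over the sets, which also holds the difference between replicates 2 and 4. It may thus be larger than the noise of this fit. Either way, 0 calls does not show that the genes were like all others. The sign for Jon65Aiii and Jon66Cii turned with other settings: with values as deposited they were at 0.0995 and 0.121. A p-value that misses the threshold does not show that the amounts in treated and control heads were alike.

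If the deposited values instead are already treated over control, the mean of the 3 sets is the effect. Beside that reading, 3 measurements on the spots of yip7 and Jon65Aiii are given: their place on the slide, the values of their neighbours and their missing value on replicate 3.

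The spots of yip7 and Jon65Aiii were close to each other in spot number. Spot numbers were read as 48 blocks of 24 rows and 24 columns, an assumed layout that no file gives. On it both genes fell in block 19, with Jon65Aiii in row 4, columns 9 and 10, and yip7 in row 5, columns 15 and 16. The other spots of that block had a median centred log2 ratio of 0.601 (shared set), 0.724 (replicate 2) and 0.465 (replicate 4). By its median over all its spots, this block ranked 3, 2 and 1 of the 48 blocks from the top in those sets, sharing the top rank on replicate 4 with another block. Of the 84 units tested there besides these genes, 66 were positive in all 3 sets and 0 were negative in all 3, where 28.5% of all units were positive in all 3. The genes yip7 and Jon65Aiii were thus positive among spots that were mostly positive.

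**Figure D2:**
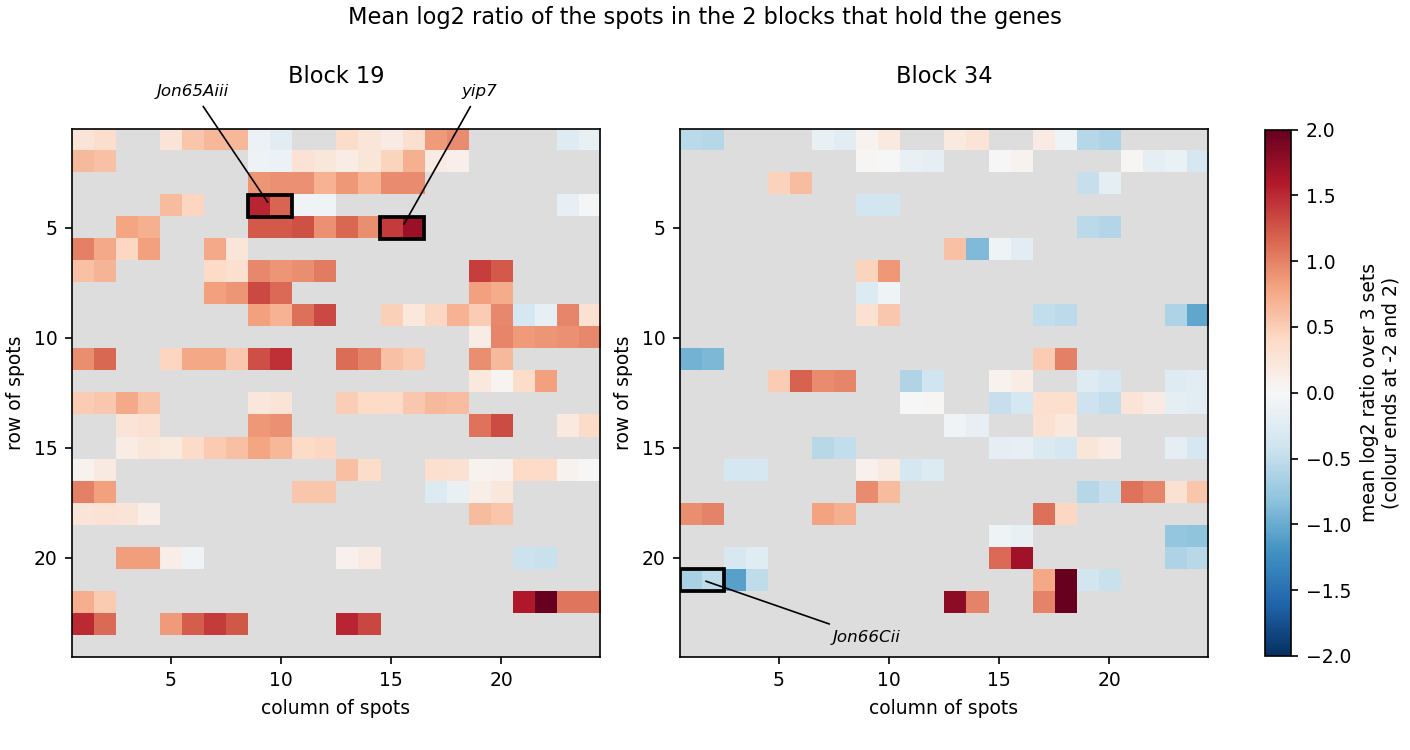
Spots of block 19 and block 34 by row (vertical axis) and column (horizontal axis), coloured by the mean centred log2 ratio over the 3 sets, red for positive and blue for negative, grey where a set has no value; black frames mark the spot pairs of the 3 genes. Yip7 and Jon65Aiii lie 1 row apart in a mostly red part of block 19, and Jon66Cii lies at the left edge of the sparsely filled block 34.

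Most genes of other families printed close to them were on the positive side as well. Cog8, which encodes a subunit of the Golgi tethering complex COG, had a mean of 1.23 ± 0.406 (SD, n = 3 sets) in the same row as yip7. In that row opm had a mean of 1.09 and CG5762 one of 1.04. Chi, which encodes a cofactor of LIM-domain transcription factors, was at 0.923, and daed at 0.986. Within 2 rows and 6 columns of yip7, 10 of 11 units other than Jon65Aiii were positive in all 3 sets, with a median of 0.943. Around Jon65Aiii 11 of 16 units other than yip7 were positive in all 3 sets, with a median of 0.685. The rest there were Taf3 at -0.103, Tet at 0.191, Nckx30C at 0.255, Ca-alpha1D at 0.498 and an unnamed pair at -0.0755. That pair lay in columns 11 and 12 of row 4, directly beside Jon65Aiii.

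Of the 84 other units of the block, 1 had a mean above yip7 and 3 had one above Jon65Aiii. The means of the genes exceeded that of the block's median unit by 0.962 and 0.746. High places within the block follow from how the genes were picked. On single arrays the position was less extreme on replicate 2, where 158 and 186 of 202 other spots lay below the spots of yip7, than on replicate 4, where 221 and 222 of 222 did.

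**Figure D3:**
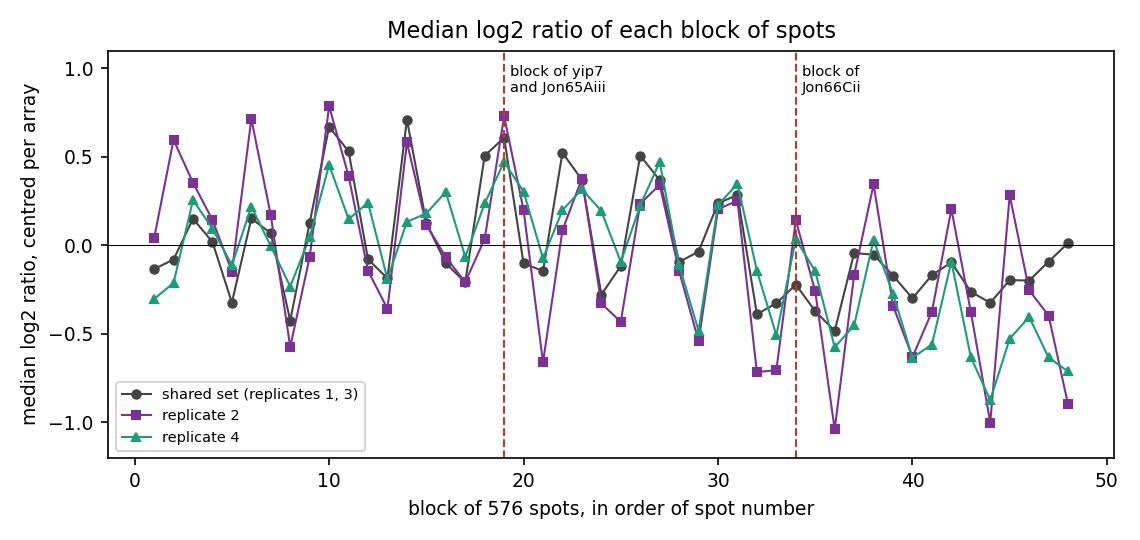
Median centred log2 ratio (vertical axis) of each of the 48 blocks of 576 spots in order of spot number (horizontal axis), 1 line per set; dashed lines mark the blocks that hold the 3 genes. The medians of the 3 sets go up and down together over much of the slide, block 19 is near the top in each set, and block 34 is near the middle on replicates 2 and 4.

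When block medians and a smooth trend within each block were subtracted from each array, the means of all 3 genes moved towards 0. Yip7 then read 0.723 (shared set), 0.200 (replicate 2) and 1.62 (replicate 4), and averaged 0.848 ± 0.719 (SD, n = 3 sets). Its SD was larger than before the correction, and replicate 4 gave the most positive value. Jon65Aiii was at 0.913, 0.420 and 0.708 in the same order, a mean of 0.680 ± 0.248 (SD, n = 3 sets). The order of all named genes by mean put them in places 17 and 33 from the top after this correction, and both stayed positive in 3 of 3 sets.

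Jon66Cii lay elsewhere, in block 34, row 21, columns 1 and 2, at the edge of the block. The other spots there had medians of -0.209, 0.160 and 0.0515 in the shared set, replicate 2 and replicate 4, so the gene was below its block in each set. Only 4 other spots with a value lay within 2 rows and 6 columns of it. The nearest gene, Rpt3, which encodes a subunit of the proteasome's regulatory particle, was negative as well, at -0.797 ± 0.321 (SD, n = 3 sets). After the correction for position Jon66Cii read -0.576 (shared set), 0.151 (replicate 2) and -0.137 (replicate 4), and averaged -0.187 ± 0.366 (SD, n = 3 sets). Its sign was then no longer the same in all sets. Subtracting the block medians alone, without the trend within blocks, left it at -0.566.

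The correction also narrowed the gap between the genes. The difference between yip7 and Jon66Cii became 1.30, 0.0485 and 1.76 in the order shared set, replicate 2 and replicate 4, and that between Jon65Aiii and Jon66Cii 1.49, 0.269 and 0.845. On replicate 2 the difference between yip7 and Jon66Cii was thus almost gone. What place on the slide contributed to the values of these genes was not tested apart from these corrections.

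Genes with spots both in block 19 and elsewhere gave a comparison within a gene, though their spots may carry different clones. There were 3 such genes with values in all sets. For ine, a transporter-like gene expressed in the nervous system, the mean was 0.782 in block 19 and -0.632 in block 1. For Taf3, a subunit of the general transcription factor TFIID, it was -0.103 inside and -0.327 outside, with spots in blocks 26 and 36. For CIA30, an assembly factor of respiratory complex I, it was 0.591 inside and 0.596 outside, in block 30. Block 30 had medians above 0 as well, of 0.239 (shared set), 0.205 (replicate 2) and 0.229 (replicate 4). A higher value inside the block in all 3 sets was therefore seen for 1 of 3 genes. As the other blocks had medians away from 0 too, this count does not measure the shift of block 19.

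The values of yip7 and Jon65Aiii in the shared set came from the column of replicate 1 alone. The column of replicate 3, identical elsewhere, lacked a value at all 4 of their spots, while it had both values of Jon66Cii. Such gaps affected 1713 spots, 18.3% of those with a value on replicate 1, and were more frequent in block 19, with 90 of 222 spots or 40.5%. Spots with such a gap had a higher centred log2 ratio on replicate 2, with a median of 0.357 against -0.0935 for the others. Without the shared set, over replicates 2 and 4 alone, the means were 1.56 for yip7, 1.22 for Jon65Aiii and -0.536 for Jon66Cii.

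The other gut serine proteases were sparsely covered. Of 32 genes in a list of Jonah, trypsin and Ser genes, 16 had a spot in the annotation, 9 had a value in any set and 7 had a value in all 3. Besides the 3 genes described, these were Jon65Aiv, Jon25Biii, thetaTry and Ser6. Jon99Fii and the trypsin gene zetaTry had a value on replicate 4 only, of 0.605 and -0.341. Jon65Ai, Jon66Ci, Jon25Bi, Jon25Bii, Jon99Fi, gammaTry and iotaTry had spots without any value, so the close relatives Jon65Ai and Jon66Ci could not be set beside Jon65Aiii and Jon66Cii.

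Jon65Aiv, whose gene lies next to Jon65Aiii and near yip7 on the left arm of the third chromosome in the RefSeq gene table, did not share their values. It read -0.439 (shared set), -0.483 (replicate 2) and 0.112 (replicate 4), and averaged -0.270 ± 0.331 (SD, n = 3 sets). Its spots with a value were in block 27, where the medians of all spots were 0.369, 0.343 and 0.472 in the same order. On each array Jon65Aiv was below both neighbours by more than 1 unit of log2 ratio. After the correction for position it was at -0.489. No other gene among the 2 on either side of yip7, Jon65Aiii or Jon66Cii had a value, apart from these.

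Jon25Biii lay at 0.112, 0.0755 and 0.291 in the same order of sets, averaging 0.159 ± 0.115 (SD, n = 3 sets). The trypsin gene thetaTry lay at 0.463, -0.0695 and 0.133, a mean of 0.175 ± 0.269 (SD, n = 3 sets). Ser6, another digestive protease gene, lay at 0.149, -0.659 and 0.126, a mean of -0.128 ± 0.460 (SD, n = 3 sets). These 3 genes and Jon65Aiv stayed within 0.3 of 0 in their means, with signs that differed between sets for all but Jon25Biii.

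Tested with limma for a mean other than 0, none of these 4 other proteases passed (0 also at an unadjusted p under 0.05). In that test 8.6% of all units were called positive and 2.02% negative, and 1376 units, 34.4%, had an unadjusted p under 0.05. With so few genes, 0 calls does not set them apart from all units. The 7 proteases with full values had a median of 0.159. Of these, 3 were positive and 1 negative in all 3 sets, but the 3 picked genes are among them. Of the 4 others, 1 was positive and 0 were negative in all 3 sets, where 55.5% of all units kept 1 sign. The median of all units was -0.0253. Without the 3 picked genes the median was 0.0156, and over the 7 genes it was 0.0297 after the correction for position and -0.214 with values as deposited.

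**Figure D4:**
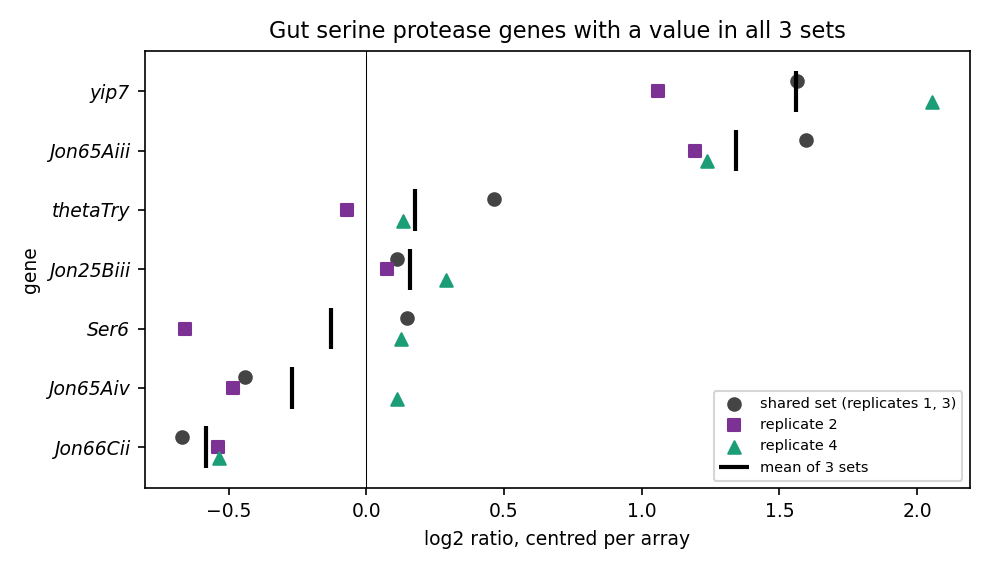
Centred log2 ratio (horizontal axis) of the 7 gut serine protease genes with a value in all 3 sets (vertical axis), 1 symbol per set, with the mean as a black bar. Yip7 and Jon65Aiii stand apart on the positive side with all symbols above 1, while the means of the other 5 genes lie between -0.580 and 0.175.

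Other enzymes of digestion were also sparsely covered. Of 36 genes in a list of amylases, maltases, lipases, lysozymes and related enzymes, 5 had full values, and limma called 0 of them in the mean of the sets, where 10.6% of all units were called (0 at an unadjusted p under 0.05, against 34.4% of all units). Their median was 0.101, with 1 positive and 1 negative in all sets. The maltase gene Mal-A2 was at -0.426 ± 0.464 and the glucosidase gene tobi at 0.357 ± 0.419 (SD, n = 3 sets). Serine proteases and homologues outside digestion, 5 genes, had a median of -0.261, and spirit, a protease gene of the immune response, was called at -1.26 ± 0.630 (SD, n = 3 sets; limma adjusted p = 0.0407), the highest size in that list. After the correction for position it was at -0.615 (limma adjusted p = 0.188), and neither with that correction nor with values as deposited was any unit called. The inhibitors of such proteases, 2 genes with full values, had a median of -0.272, with the serpin gene nec at -0.594.

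Markers of other tissues were read from the same arrays beside these values. Fat body markers had a median of -0.118 over 5 genes, with Fbp2 called on the positive side at 0.764 (limma adjusted p = 0.0472), but at 0.389 and not called after the correction for position (limma adjusted p = 0.194). None of the other fat body genes with full values was called. Yp2, a yolk protein gene, averaged -1.63 ± 2.19 (SD, n = 3 sets). It read -0.257 (shared set), -0.465 (replicate 2) and -4.16 (replicate 4). The lipoprotein gene apolpp averaged -0.118 ± 1.29 (SD, n = 3 sets), from 0.450, 0.790 and -1.59 in the same order. Mtp was at 0.312 ± 0.509 and Lsp2, a larval serum protein gene, at -0.170 ± 0.518 (SD, n = 3 sets). Muscle markers had a median of -0.28 over 7 genes, glia markers -0.711 over 3, photoreceptor markers -0.103 over 6 and neuron markers 0.00742 over 2. With the correction for position these medians were -0.0357, -0.334, -0.149 and -0.180 in the same order. Of 3 testis and accessory gland genes with full values, with a median of 0.443, Mst77F was called positive at 0.857 (limma adjusted p = 0.0431), and was at 1.23 and not called after the correction for position (limma adjusted p = 0.113). Mst85C, of the same list, was at -0.568 and was not called. Of all units, 8.6% were called positive in the mean of the sets, so 1 call each does not set such small lists apart. With values as deposited Fbp2 and Mst77F were not called either. Their part in the values of the proteases was not tested.

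The named genes most like each protease were sought by the Euclidean distance over the 3 centred sets, among 2026 others. For yip7 they were CG16826 at a distance of 0.491, CG12493 at 0.697 and pea, a spliceosomal RNA helicase gene, at 0.782. For Jon65Aiii they were CG30487 at 0.163, CG10947 at 0.218 and CG43163 at 0.259. For Jon66Cii they were CG14102 at 0.0950, ATPsynD, a subunit gene of the mitochondrial ATP synthase, at 0.121 and CG7737 at 0.136. None of these 9 was a gut serine protease of the list, and 1 of them, pea, had its spots in block 19.

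**Figure D5:**
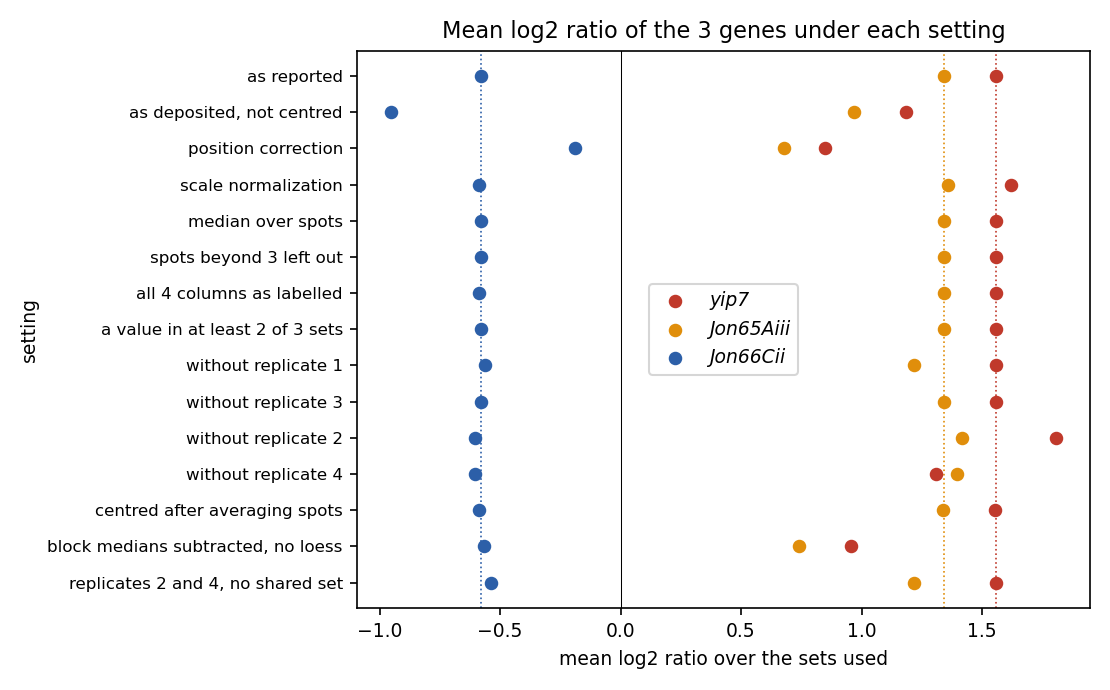
Mean log2 ratio (horizontal axis) of yip7, Jon65Aiii and Jon66Cii over the sets used, under each way of processing (vertical axis); dotted lines mark the values as reported. Yip7 and Jon65Aiii stay above 0 and Jon66Cii below 0 in every setting shown, and all 3 come closest to 0 with the position correction.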

How the data were processed

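Per the design text of the series, the authors quantified images in GenePix Pro 6.0, used ratio normalisation in Acuity 4.0, and kept spots by filters on saturation, flags, uniformity and signal over noise. What the authors deposited are log ratios, taken to be log2. Their base, centring and direction are not stated in the labels. Channel intensities were not used, so the brightness of a spot is unknown, and precision is limited by the number of arrays.

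The platform annotation gave 1 symbol for 15116 of 27648 spots, several for 102 and none for 12430. Symbols were checked through gene IDs against RefSeq genes (assembly Release 6) for 14894 spots, and 0 changed. No coordinates are given, because the annotation names no build. Arrays were median-centred over spots and then averaged by gene. Tests were two-sided in limma 3.58.1 under R 4.3.3, with Benjamini-Hochberg adjustment over all 4002 units and a threshold of 0.05. In the dye contrast, replicates 2 and 4 were coded by dye and the shared set as 0. A p-value here reflects only how these sets vary, with each unit's variance drawn by limma towards a value pooled over all units. In the dye contrast the pooled part had 4.57 of 5.57 degrees of freedom. Its standard errors and intervals therefore say little about the spread of a single gene. The position correction subtracted block medians and then a robust loess over rows and columns (span 0.4, blocks with at least 30 values). The reading of 24 spots to a row was checked by the correlation of block-centred spots, which was 0.184 at a distance of 24 spots, 0.187 at 22, 0.159 at 20, 0.121 at 26 and 0.0713 at 28. This does not single out 24, so rows and columns, and the trend subtracted over them, rest on an assumed layout. Fits were tested on simulated data, where the dye contrast returned the simulated effects but called none of them. The simulated noise came from each unit's SD over the sets, so it also held the difference between replicates 2 and 4. How often the dye contrast would call a real effect is therefore not known, and 0 calls there says little.

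The genes, the lists and the tests were chosen with earlier results of these data known. Named were the 3 genes, the 3 nearest genes to each, flanking genes in the RefSeq table and all measured gut serine proteases. From other lists came up to 2 genes of the largest size and those called there. As exceptions, all 5 fat body genes with full values were named, and no single gene of the muscle, glia, photoreceptor and neuron lists. Slide neighbours and genes in several blocks were chosen after their values were seen. Promoter and protein motifs were planned but not analysed here. Alternatives were no centring, position correction, scale normalisation, medians over spots, extreme spots left out, all 4 columns as labelled, other requirements for values and leaving out each replicate. Added after seeing the data were centring after averaging, block medians alone and leaving out the shared set.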

Additional observations from a re-analysis of the deposited data

How the results depend on the processing

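The means of yip7, Jon65Aiii and Jon66Cii kept their sign under all 14 alternatives. They moved by more than their SD with values as deposited (0.969 for Jon65Aiii and -0.954 for Jon66Cii), with the position correction (0.848, 0.680 and -0.187) and, for yip7 and Jon65Aiii, with block medians alone (0.955 and 0.739). Leaving out a replicate gave 1.31 to 1.81, 1.22 to 1.42 and -0.603 to -0.561. The median of the gut protease list turned to -0.214 as deposited, to -0.0852 with block medians alone and to -0.109 without replicate 1, where 2 genes, yip7 and Jon65Aiii, lacked a full set of values. It was 0.0297 with the position correction and 0.0315 without the shared set, and -0.109 to 0.201 when a replicate was left out. In the dye contrast, Jon65Aiii turned to 0.0995 as deposited, to 0.0789 with all 4 columns as labelled and to the same 0.0789 without replicate 3. Jon66Cii turned to 0.121 as deposited, 0.144 with the position correction, 0.0809 with scale normalisation and 0.018 without replicate 1. No adjusted p of the 3 genes there was under 0.759 in any alternative, and leaving out a replicate gave only -0.372 for yip7, from the fit without replicate 3, and -0.0336 to 0.018 for Jon66Cii. A fit without replicate 2 or 4 cannot give this contrast, and without replicate 1, or with a value required in all 4 columns, yip7 and Jon65Aiii drop out. The cause of these turns was not tested.

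Units called in the dye contrast rose from 0 to 11 as deposited and were 1 to 2 with replicate 1 or 3 left out. In the mean of the sets 425 of 4002 units were called, 0 as deposited, 0 with the position correction, 10 with block medians alone, 164 with scale normalisation, 668 without extreme spots, 1238 of 4557 with all 4 columns as labelled, where the identical columns count as separate, 0 over replicates 2 and 4 alone, and 8 to 422 when a replicate was left out, 8 without replicate 2, 64 without replicate 1 and 279 without replicate 4. Each array holds its treated and control pool together, so every log2 ratio is already a paired value. The 4 replicates form 1 group, and no further pairing was made.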
